A study of Mus musculus with 15 samples.

Results

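The Slc25 genes encode the mitochondrial solute carriers, a large family of membrane transport proteins, and they are described here in mouse lung from an ovalbumin (OVA) model of allergic asthma. Members were taken by symbol, as every gene named Slc25a followed by a number, which gave 41 of the 14766 genes in the deposited table. RNA sequencing covered 15 libraries of whole lung from wild-type mice, 5 in each of 3 groups. Control mice received normal saline. OVA mice received ovalbumin by intraperitoneal injection and by inhaled aerosol, and OVA_Rg3 mice received the same ovalbumin together with ginsenoside Rg3, a ginseng saponin, at 20 mg/kg by gavage. The labels call the replicates biological and put every library in batch 1, and the age, sex and strain of the mice are not given in the sources used here.

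Most Slc25 proteins sit in the inner mitochondrial membrane, where each exchanges or carries a small set of solutes between the cytosol and the matrix: nucleotides, phosphate, carboxylic acids, amino acids, cofactors, metal ions or protons. A few work elsewhere, in the outer mitochondrial membrane or in peroxisomes. All are encoded in the nucleus and made in the cytosol, so their transcripts are separate from those of the mitochondrial genome, which encodes subunits of the respiratory chain and of ATP synthase.

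The deposited values were read as FPKM (fragments per kilobase of gene length, relative to the library total), although the table names no unit. They were divided by a median-ratio scaling factor per library, calculated over 10246 genes, and levels below are these scaled FPKM unless deposited values are named. A change is a difference of log2(scaled FPKM + 1), which understates the change of genes with low levels, and a gene was called changed when its limma p-value, adjusted by Benjamini-Hochberg over all 12137 genes tested, was under 0.05. Of the 41 carriers, 39 were tested, and Slc25a43 and Slc25a53 were not, since fewer than 5 libraries reached a deposited value of 1. The values come from whole lung, where fewer cells of a type and less RNA per cell cannot be told apart.

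The libraries differed in depth and in composition. Steps between low values implied 0.217 to 9.03 M reads per library, and the shallowest libraries were OVA_Rg3 1, with 0.217 M, and control 2, with 0.832 M. All 6 alveolar type 2 cell markers and all 6 endothelial markers were above 0 in every library. The summed level of 8 liver markers was 351 in control 2, 352 in OVA 4 and 1535 in OVA_Rg3 1, against at most 108 in the other 12 libraries, and markers of skeletal muscle and fat were also highest in these 3 libraries. Counts of called carriers are therefore given below with and without these 3 libraries.

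In control lung the family spanned a wide range of levels. The summed scaled FPKM of the 41 genes was 394 ± 29.6 (SD, n = 5), and 36 genes had a mean of at least 1, 11 of at least 10, 5 of at least 20 and 3 of at least 50. Slc25a4, Slc25a5, Slc25a17 and Slc25a3 together made up 50.2% of the family sum in control lung, 55.1% in OVA lung and 53.8% in OVA_Rg3 lung.

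**Figure D1:**
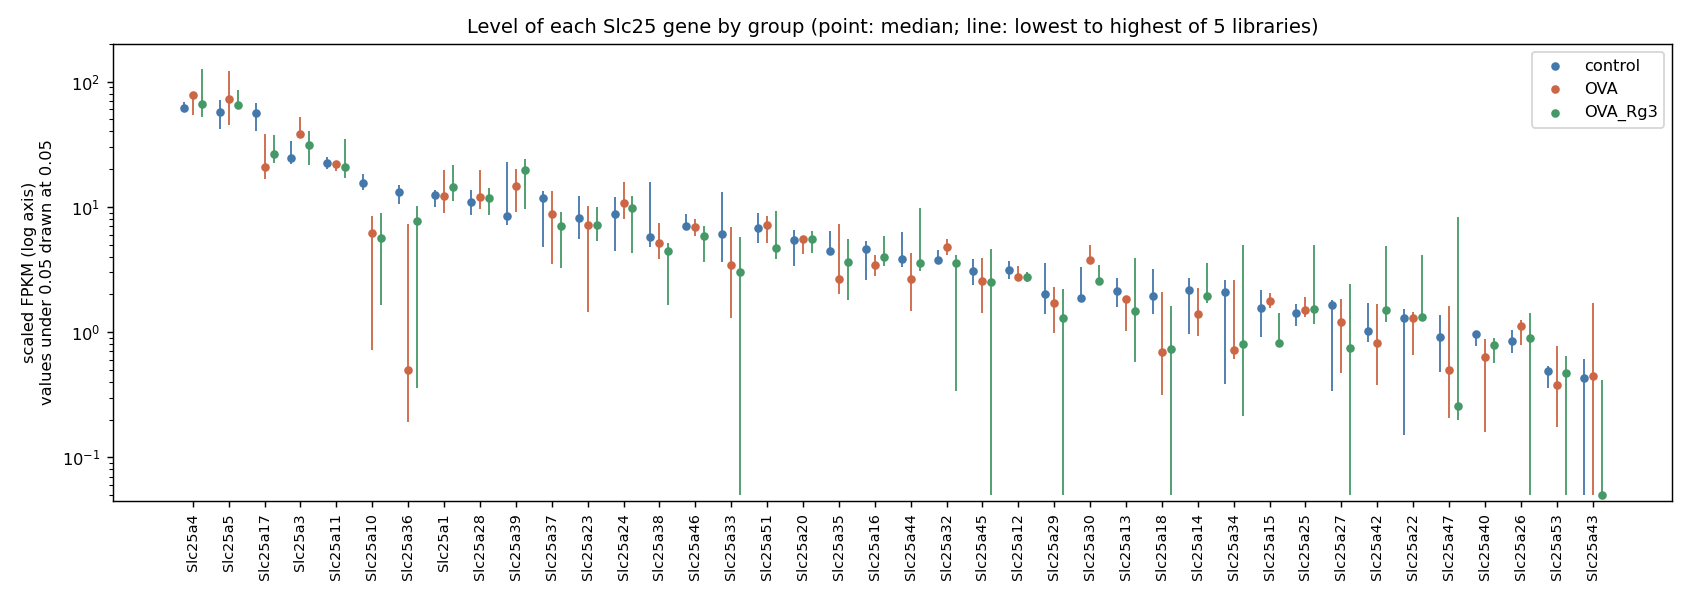
Scaled FPKM of 40 Slc25 genes on a log axis, ordered by level, with the median of each group as a point and a line from the lowest to the highest of its 5 libraries; values under 0.05 are drawn at 0.05. Levels fall from means above 50 for Slc25a4, Slc25a5 and Slc25a17 in control lung to below 1 for 5 genes, and for most genes the ranges of the 3 groups overlap.

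The ADP/ATP carriers had the highest means. Slc25a4 and Slc25a5, which exchange ADP for ATP across the inner membrane, stood at 62.4 ± 4.10 and 57.1 ± 12.9 (SD, n = 5) in control lung, a difference within the spread of Slc25a5. Slc25a3, which imports the phosphate used by ATP synthase, stood at 26.6 ± 4.73. The ATP-Mg/phosphate carriers Slc25a23 and Slc25a24, which are gated by calcium, stood at 8.90 ± 2.78 and 8.22 ± 2.89, and their relative Slc25a25 at 1.39 ± 0.210. Reads of Slc25a4 and Slc25a5 can be shared with each other and with processed copies in the genome, and how such reads were counted is not given in the sources used here.

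Among carriers of nucleotides and cofactors, Slc25a17 stood far above the rest. This peroxisomal carrier of coenzyme A and related cofactors had a mean of 52.3 ± 11.9 in control lung. Slc25a36, a pyrimidine nucleotide carrier, followed at 12.8 ± 1.84, and its closest relative Slc25a33 had 7.07 ± 3.58. Slc25a51, the carrier of NAD, had 6.95 ± 1.61, while Slc25a42, which carries coenzyme A, and Slc25a26, which carries S-adenosylmethionine, had 1.11 and 0.857.

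Carboxylic acid carriers held the next levels. Slc25a11, the oxoglutarate-malate exchanger, had 22.3 ± 2.04 in control lung, the dicarboxylate carrier Slc25a10 had 15.6 ± 2.04 and the citrate exporter Slc25a1 had 11.8 ± 1.59. Carriers of amino acids and carnitine were lower: the glycine carrier Slc25a38 had 7.57 ± 4.71, the carnitine-acylcarnitine carrier Slc25a20 had 5.22 ± 1.17, and the aspartate-glutamate carriers Slc25a12 and Slc25a13 had 3.09 ± 0.393 and 2.08 ± 0.420. The iron importers Slc25a28 and Slc25a37 had 11.3 ± 2.04 and 10.7 ± 3.39. The glutathione carrier Slc25a39 had 11.1 ± 6.57, and its relative Slc25a40 had 0.929 ± 0.106. The SD of Slc25a39 rested on control 2, at 22.8, against 7.19 to 8.85 in the other control libraries.

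The remaining carriers had means of 7.49 or less. Means in control lung were 7.49 for Slc25a46, which acts in the outer membrane on the shape of mitochondria, 5.04 for Slc25a35, 4.34 for Slc25a16, 4.13 for Slc25a44, which carries branched-chain amino acids, and 3.201 for Slc25a45. Slc25a32, which carries folate, had 4.0, and the ornithine carrier Slc25a15 had 1.48. The glutamate carriers Slc25a18 and Slc25a22 had 2.08 and 1.09, Slc25a29, which carries basic amino acids, had 2.38, and the uncoupling protein relatives Slc25a14, Slc25a30 and Slc25a27 had 2.05, 2.14 and 1.38. Slc25a34 had 1.79. Below 1 were Slc25a47, Slc25a40, Slc25a26, Slc25a53 and Slc25a43, from 0.954 to 0.365. Slc25a47, known as a liver carrier, had 8.30 in OVA_Rg3 1, the library with the highest sum of liver markers, and 0.197 to 0.586 in the other OVA_Rg3 libraries.

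Some members lie side by side in the genome. On GRCm38, Slc25a29 (chr12:108825873-108835883, minus strand) and Slc25a47 (chr12:108836046-108856815, plus strand) lie head to head on opposite strands, and Slc25a43 (chrX:36743659-36777202) lies next to Slc25a5 (chrX:36795651-36798807). The neighbours did not share a level: Slc25a5 had 57.1 and Slc25a43 0.365 in control lung. Whether counting used strand is not given in the sources used here, and 31.3% of the exonic length of Slc25a35 and 14.9% of that of Slc25a33 overlap a gene on the opposite strand.

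OVA lung was compared with control lung to ask how the allergic model changed the carriers. Of the 39 carriers tested, 5 changed: Slc25a36, Slc25a17 and Slc25a10 fell, and Slc25a30 and Slc25a3 rose. This is 12.8% of the carriers, beside 14.8% of all genes tested, with 8.43% of all genes lower and 6.34% higher. The median change of the carriers was -0.10 on the log2 scale and that of all genes -0.018. Without control 2, OVA 4 and OVA_Rg3 1 the count was again 5, with 2 higher and 3 lower. This was 13.2% of the 38 carriers then tested, beside 20.8% of all genes. The 5 called carriers were also the ones whose OVA and control libraries did not overlap, as was so for 16.2% of all genes, 9.24% lower and 7% higher. A share this near the background is not a result about the family, and the results are those of single carriers.

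**Figure D2:**
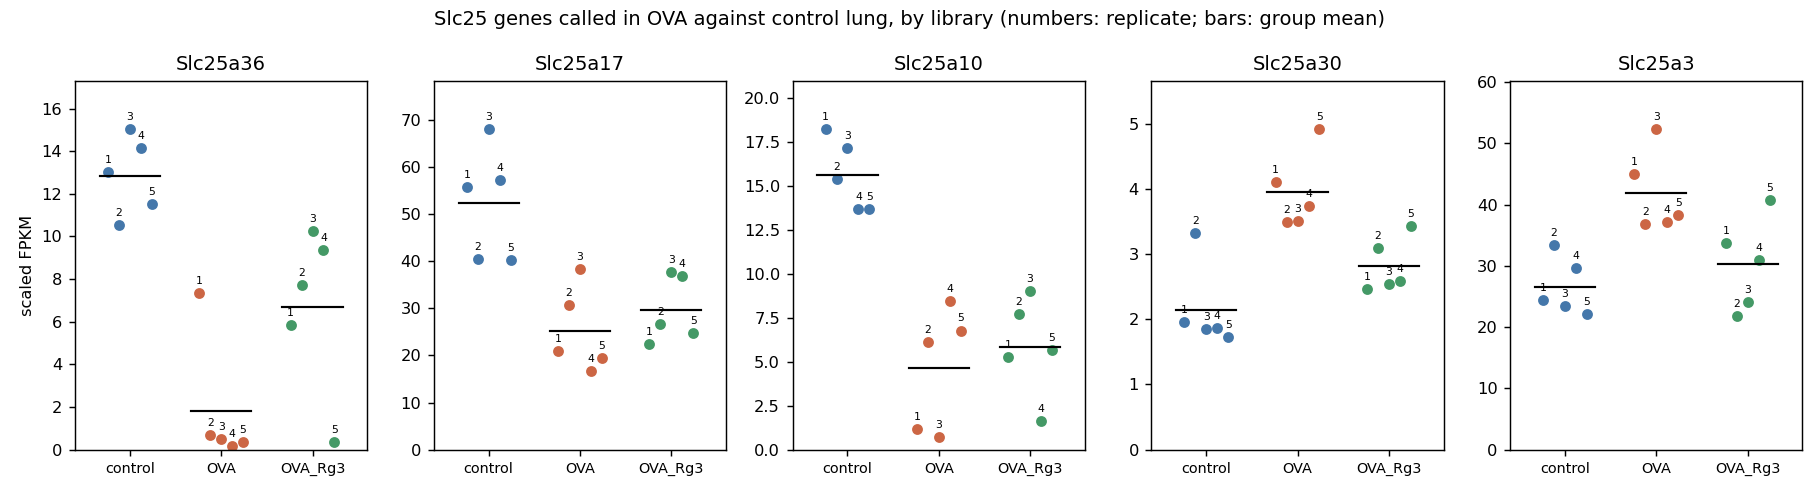
Scaled FPKM of the 5 carriers called in OVA against control lung, with 1 point per library, numbered by replicate, and a bar at each group mean. In OVA lung 4 of 5 libraries of Slc25a36 lie at or below 0.700, and no OVA library overlaps the control libraries for any of the 5 genes.

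The largest change was that of Slc25a36, which imports pyrimidine nucleotides into the matrix for the synthesis of mitochondrial DNA and RNA. Control libraries 1 to 5 had 13.04, 10.5, 15.04, 14.1 and 11.5, and OVA libraries 1 to 5 had 7.32, 0.700, 0.498, 0.192 and 0.374. OVA libraries all lay below the control libraries, and OVA 1 stood well above the other 4. The gene fell by 2.76 on the log2 scale (SE 0.56, limma adjusted p = 0.00565). It was called under all 27 alternative settings, with changes between -3.89 and -2.59. Slc25a33, the other pyrimidine nucleotide carrier, had a change of -0.79 that did not pass (adjusted p = 0.278).

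Slc25a17 also fell. Control libraries had 55.7, 40.5, 68.1, 57.3 and 40.2, and OVA libraries had 20.9, 30.7, 38.3, 16.7 and 19.5. The groups did not overlap, though OVA 3 at 38.3 came close to control 5 at 40.2. The change was -1.06 (SE 0.24, limma adjusted p = 0.00938). On the deposited values it was -2.0.

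Slc25a10 exchanges malate or succinate for phosphate. Control libraries had 18.2, 15.4, 17.2, 13.7 and 13.7, and OVA libraries had 1.17, 6.14, 0.722, 8.44 and 6.78. The OVA values were spread over a wider range, with OVA 1 and OVA 3 lowest. The change was -1.86 (SE 0.46, limma adjusted p = 0.0141). An antisense gene, Gm11788, shares 6.60% of the exonic length of Slc25a10. Neither other carrier of carboxylic acids was called after scaling: the change was -0.055 for Slc25a11 (adjusted p = 0.876) and 0.14 for Slc25a1 (adjusted p = 0.728). On the deposited values, where 51.2% of all genes were called lower, both were called lower. Their changes were then -0.98 for Slc25a11 (adjusted p = 0.00948) and -0.76 for Slc25a1 (adjusted p = 0.0103).

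Slc25a30, a relative of the uncoupling proteins first described in kidney, rose after scaling and was at -0.033 on the deposited values. Control libraries had 1.95, 3.32, 1.85, 1.87 and 1.73, and OVA libraries had 4.11, 3.49, 3.51, 3.74 and 4.92. Only control 2, the shallowest control library, came near the OVA range. The change was 0.67 (SE 0.16, limma adjusted p = 0.0123), and the gene was called under 24 of 26 alternatives, not on deposited values or at adjusted p under 0.01.

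Slc25a3 rose after scaling and was at -0.30 on the deposited values. Control libraries had 24.4, 33.3, 23.5, 29.7 and 22.1, and OVA libraries had 45.01, 36.9, 52.3, 37.2 and 38.3. The groups did not overlap, and the gap between control 2 at 33.3 and OVA 2 at 36.9 was small. The change was 0.64 (SE 0.19, limma adjusted p = 0.0310). It was the least stable of the 5 calls, held under 17 of 27 alternatives. The call was lost without control 1, control 3, control 4, control 5, OVA 1 or OVA 3, with adjusted p between 0.0505 and 0.0798, and with scaling over genes of higher level, with adjusted p = 0.0772.

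The proximal promoters of these 5 genes are shown because the genes are the ones that changed. Each sequence is from RefSeq on GRCm38.p6, runs 5′ to 3′ on the strand of the gene, and spans 250 bases before to 50 bases after the start. Capitals mark motifs found on either strand: TGACGTCA (cyclic AMP response element), CACGTG (E-box), TGCGCA (NRF1 core), CCGGAAG (ETS site), AAGATGGC (YY1 site) and CCAAT. No marked stretches overlap each other.
Slc25a36 (chr9:97110992-97111291, minus strand): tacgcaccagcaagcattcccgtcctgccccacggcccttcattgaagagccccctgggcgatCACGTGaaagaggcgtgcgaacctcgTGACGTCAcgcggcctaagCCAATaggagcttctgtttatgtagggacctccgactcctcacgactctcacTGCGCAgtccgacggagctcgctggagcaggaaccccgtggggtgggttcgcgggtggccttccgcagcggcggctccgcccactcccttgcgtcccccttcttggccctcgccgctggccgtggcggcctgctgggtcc
Slc25a17 (chr15:81360716-81361015, minus strand): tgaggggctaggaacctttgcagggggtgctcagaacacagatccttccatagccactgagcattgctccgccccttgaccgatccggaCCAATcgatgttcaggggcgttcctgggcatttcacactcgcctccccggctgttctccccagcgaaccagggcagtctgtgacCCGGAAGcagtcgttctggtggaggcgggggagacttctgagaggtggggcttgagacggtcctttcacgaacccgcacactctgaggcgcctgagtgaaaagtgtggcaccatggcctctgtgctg
Slc25a10 (chr11:120491587-120491886, plus strand): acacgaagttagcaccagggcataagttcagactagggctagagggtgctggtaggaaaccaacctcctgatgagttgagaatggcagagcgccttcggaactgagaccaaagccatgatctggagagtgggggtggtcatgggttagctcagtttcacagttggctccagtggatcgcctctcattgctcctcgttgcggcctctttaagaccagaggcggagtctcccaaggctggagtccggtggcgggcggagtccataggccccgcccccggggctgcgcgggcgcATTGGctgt
Slc25a30 (chr14:75786988-75787287, minus strand): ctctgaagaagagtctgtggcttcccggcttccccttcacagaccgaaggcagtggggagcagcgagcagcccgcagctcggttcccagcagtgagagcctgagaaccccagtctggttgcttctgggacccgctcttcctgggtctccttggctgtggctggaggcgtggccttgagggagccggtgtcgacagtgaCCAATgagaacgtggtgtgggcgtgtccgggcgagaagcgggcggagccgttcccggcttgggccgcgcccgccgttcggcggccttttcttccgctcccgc
Slc25a3 (chr10:91123918-91124217, minus strand): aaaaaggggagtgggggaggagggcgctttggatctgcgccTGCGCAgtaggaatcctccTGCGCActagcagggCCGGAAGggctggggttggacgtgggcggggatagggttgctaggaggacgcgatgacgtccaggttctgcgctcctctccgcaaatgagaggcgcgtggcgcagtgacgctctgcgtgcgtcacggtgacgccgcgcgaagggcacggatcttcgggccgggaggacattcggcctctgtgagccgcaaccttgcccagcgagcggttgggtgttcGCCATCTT
The one motif found in all 3 genes that fell was CCAAT, which Slc25a30 also held, and it was found in 37.4% of all 32851 promoters searched. CCGGAAG was found in Slc25a17 and Slc25a3, and in 8.86% of all promoters. TGCGCA was found in Slc25a3 and Slc25a36 (7.76% of all), CACGTG in Slc25a36 (7.15%), TGACGTCA in Slc25a36 (1.79%) and AAGATGGC in Slc25a3 (2.75%). Of the 41 members, 32 had at least 1 promoter in the table. Counted by member, CCAAT was found in 18 of the 32, CACGTG and CCGGAAG in 6 each, TGCGCA in 2 and AAGATGGC in 1. TGACGTCA was found in 2, the other being Slc25a25. The GC content of the 5 printed promoters was 59.7% to 66.7%, and the median of all promoters was 52.7%. A match describes letters in this window and nothing about binding in these lungs.

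The 34 other carriers tested did not pass in OVA lung, and 23 of the 39 had a 95% interval within 1 log2 unit of 0. Among carriers of ATP synthesis, the change was 0.15 for Slc25a4 (adjusted p = 0.699) and 0.26 for Slc25a5 (adjusted p = 0.546). Both were positive after scaling, with the exception that Slc25a4 was at -0.031 after quantile normalization. On the deposited values, where 51.2% of all genes were called lower, both were called lower. Their changes were then -0.81 for Slc25a4 (limma adjusted p = 0.00887) and -0.70 for Slc25a5 (adjusted p = 0.0160). The change was -0.0055 for Slc25a20 (95% interval -0.37 to 0.35), a value whose sign turned under several settings, and -0.077 for Slc25a12 (95% interval -0.35 to 0.20), which was positive only after quantile normalization. On the deposited values these were called lower as well, at -0.80 for Slc25a20 (limma adjusted p = 0.0289) and -0.79 for Slc25a12 (adjusted p = 0.00840). After scaling, none of the 9 carriers of amino acids and carnitine was called, beside 14.8% of all genes. Of their 9 changes after scaling, 7 were below 0, as were 25 of the 39 carriers and 51.5% of all genes. Slc25a18, a glutamate carrier, came nearest after scaling, at -0.73 (adjusted p = 0.0880). This gene was worth fewer than 3 reads in 5 of the 15 libraries, among them OVA 1, OVA 4 and OVA 5.

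Carriers known for a role in the making of haem were set beside the red cell markers. Slc25a37 (mitoferrin 1) brings iron to haem synthesis in developing red cells and Slc25a38 brings glycine. The summed level of 7 red cell markers was 1112 to 2965 in control, 6876 to 12640 in OVA and 2439 to 5610 in OVA_Rg3 libraries, and all 7 markers rose in OVA lung. Slc25a37 had 4.79, a median of 11.9 and 13.3 as lowest, middle and highest value in control, and 3.48, 8.80 and 13.3 in OVA lung. Its change was -0.28 (adjusted p = 0.644), that of Slc25a38 -0.32 (adjusted p = 0.525) and that of Slc25a39 0.41 (adjusted p = 0.436). None of the 3 passed in either direction after scaling. On the deposited values Slc25a37 was called lower at -1.16 (limma adjusted p = 0.0196) and Slc25a38 at -1.12 (adjusted p = 0.0137), while Slc25a39 was not called.

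Other cell markers moved with the same contrast. The summed level of 8 smooth muscle markers was 413 to 533 in control and 101 to 195 in OVA libraries, and 7 of the 8 fell. Of 9 ciliated cell markers 5 fell, from a summed range of 771 to 1378 in control to 184 to 767 in OVA libraries, and 5 of 7 club cell markers fell. In OVA_Rg3 libraries the sums were 171 to 255 for smooth muscle and 124 to 609 for ciliated cells. No marker of these 3 lists was at 0 in any control or OVA library. Other lists were higher: the summed level of 7 alveolar macrophage markers was 61.9 to 108 in control and 265 to 1558 in OVA libraries, and 2 of the 5 tested rose while 1 fell. For 6 endothelial markers the sums were 80.4 to 123 and 124 to 378, and 1 of the 6 rose, a share of 16.7%. Of all genes tested, 14.8% were called, 8.43% lower and 6.34% higher, so the endothelial share lay near the background. Of 5 tested leukocyte markers 1 rose, of 8 cardiac markers 2 fell, and of 6 alveolar type 2 markers none was called. The part of any of these lists in the changes of the 5 called carriers was not tested.

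The family as a whole depended on the scaling. As deposited, the summed FPKM of the 41 genes was 568 ± 70.1 in control, 282 ± 77.7 in OVA and 391 ± 62.9 in OVA_Rg3 lung (SD, n = 5 each), and the highest OVA library, at 382, lay below the lowest control library, at 459.9. After scaling the sums were 394 ± 29.6, 376 ± 40.3 and 379 ± 41.5, and the ranges overlapped, at 348 to 427, 332 to 423 and 319 to 433. As deposited, 23 of 39 carriers (59%) were called lower in OVA lung and none higher, beside 51.2% of all genes called lower, all 39 changes were below 0, and the median change of all genes was -0.73.

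The scaling factors moved with the transcripts of the mitochondrial genome. The 13 mitochondrially encoded genes made up 24.6% ± 3.95 of the summed deposited values in control, 65.0% ± 15.9 in OVA and 56.4% ± 10.3 in OVA_Rg3 lung (SD, n = 5 each). The share was higher in OVA than in control lung by 40.4 percentage points (exact permutation test, two-sided, p = 0.00794, adjusted over 3 comparisons 0.0119). All 13 genes rose in OVA lung after scaling. Within OVA, libraries 3, 4 and 5, with shares of 70.5% to 79.8%, had scaling factors of 0.522 to 0.587, and libraries 1 and 2, with 46.2% and 49.9%, had 1.152 and 1.03. When the 13 genes were left out of the table and the scaling repeated, a setting chosen after seeing the data, the same 5 carriers were called. A median over 10246 genes hardly moves when 13 are left out, so the part of their share in the calls was not tested.

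**Figure D3:**
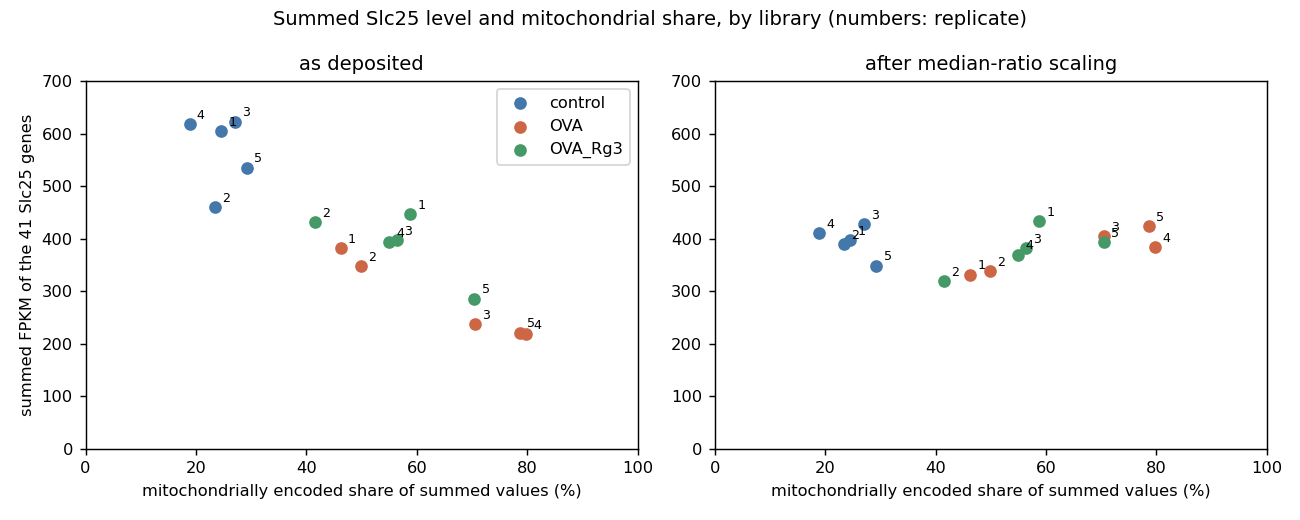
Summed FPKM of the 41 Slc25 genes against the mitochondrially encoded share of all deposited values (%), with 1 point per library, for deposited values and for scaled values. Deposited sums run from 219 to 623 and are lowest where the share is near 80%, while scaled sums stay between 319 and 433.

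OVA_Rg3 lung was compared with OVA lung to ask whether ginsenoside Rg3 shifted the carriers in the allergic model. None of the 39 carriers passed, and none of the 12137 genes did, so the background was 0%. At an unadjusted limma p under 0.05 there were 6 carriers (15.4%) and 1059 of all genes (8.73%). The count of called carriers was 0 under every alternative run, and 28 of the 39 carriers had a 95% interval within 1 log2 unit of 0. This comparison and that of OVA with control lung share the OVA libraries, so their values are not independent.

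Slc25a36 had the widest difference. OVA_Rg3 libraries 1 to 5 had 5.85, 7.74, 10.2, 9.38 and 0.360, beside 0.192 to 7.32 in OVA lung. 4 of these values lay above 4 of the 5 OVA values, and OVA_Rg3 5 lay within the low OVA values, so the groups overlapped. The change was 1.62 (95% interval 0.42 to 2.82, limma adjusted p = 0.469), and adjusted p stayed at or above 0.137 when any 1 library was left out.

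Slc25a15, the ornithine carrier that links mitochondria to the urea cycle, had the smallest p. OVA libraries had 1.57 to 2.06 and OVA_Rg3 libraries 0.801, 0.826, 0.860, 0.820 and 1.42. The groups did not overlap, and OVA_Rg3 5 stood apart from the other 4. The change was -0.55 (SE 0.16, limma adjusted p = 0.369). Groups also did not overlap for Slc25a32 and Slc25a30, so 3 carriers were lower without overlap and none higher. Of all genes, 0.923% were lower and 0.346% higher without overlap, or 1.27% in either direction. These separations were narrow or rested on few reads. For Slc25a32 the highest OVA_Rg3 value was 4.1193 and the lowest OVA value 4.1205. In OVA_Rg3 1, Slc25a15 was worth 1.01 reads and Slc25a30 2.52 reads.

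Slc25a32 had a change of -0.68 (adjusted p = 0.543), and it was -0.33 without OVA_Rg3 2, the library at 0.337. Slc25a30 had 2.47 to 3.43 in OVA_Rg3 beside 3.49 to 4.92 in OVA lung, a change of -0.37 (adjusted p = 0.544). Slc25a42 had a change of 0.66 (adjusted p = 0.515), and it was 0.40 without OVA_Rg3 1, the shallowest library, which stood at 4.84 while the other 4 lay between 1.19 and 1.58. Slc25a3 had a change of -0.48 (adjusted p = 0.507). The remaining carriers of fixed role were at -0.32 for Slc25a37, 0.24 for Slc25a1, 0.051 for Slc25a20, 0.049 for Slc25a5, -0.043 for Slc25a12 and 0.042 for Slc25a4, with adjusted p of 0.773 or more.

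**Figure D4:**
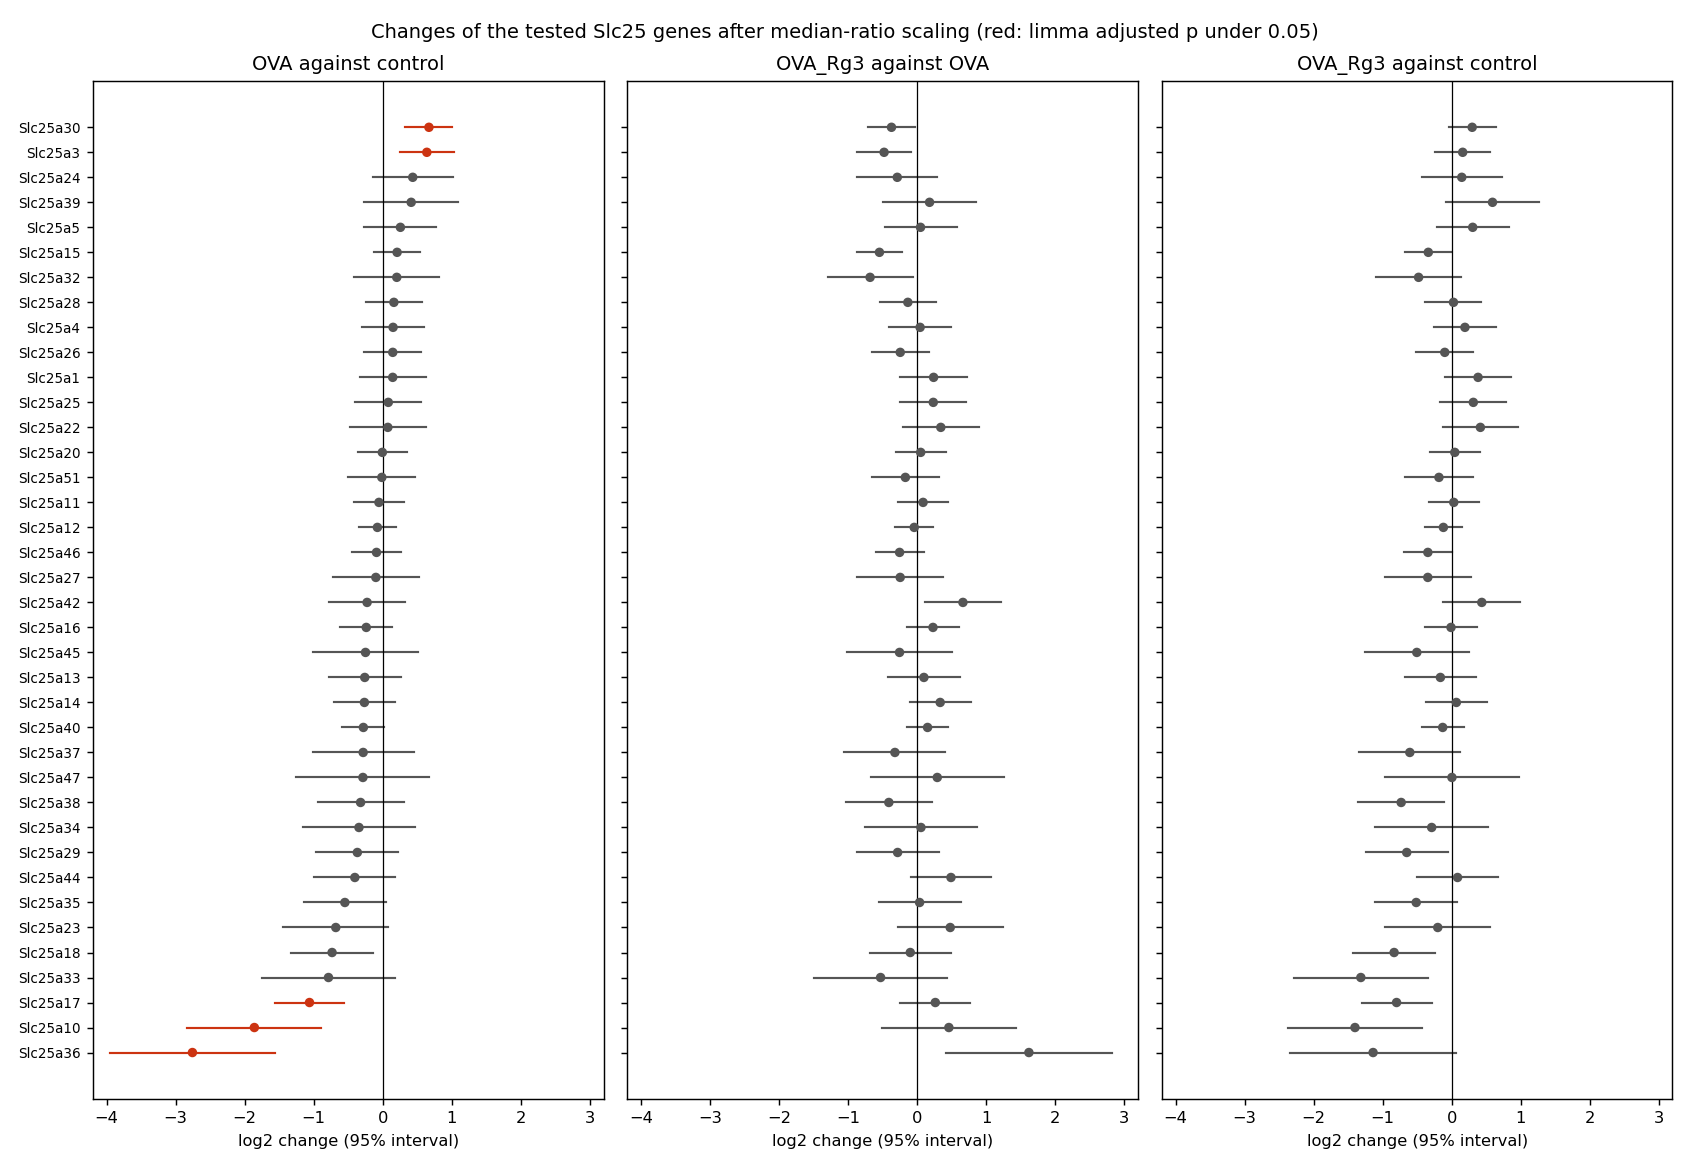
Log2 change of 38 tested Slc25 genes in the 3 comparisons, with its 95% interval and red points for a limma adjusted p under 0.05. Red points appear in OVA against control lung alone, from -2.76 for Slc25a36 to 0.67 for Slc25a30.

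OVA_Rg3 lung was also compared with control lung. None of the 39 carriers passed with limma, while 7.78% of all genes did, 4.79% lower and 2.99% higher, and 7 carriers (17.9%) had an unadjusted p under 0.05, beside 24.5% of all genes. The count under the alternatives ran from 0 to 8, the highest on deposited values, where 16.6% of all genes were called. Slc25a17 was nearest: OVA_Rg3 libraries had 22.5, 26.6, 37.7, 36.9 and 24.8, all below the lowest control value of 40.2. Its change was -0.80 (SE 0.24, adjusted p = 0.0521), and adjusted p ran from 0.0357 to 0.137 when 1 library was left out.

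Slc25a10 likewise stayed below control without overlap, at 5.27, 7.73, 8.999, 1.64 and 5.67 in OVA_Rg3 libraries, with a change of -1.40 (SE 0.46, adjusted p = 0.0713). Slc25a36 was lower without overlap as well, with a change of -1.14 (SE 0.56, adjusted p = 0.227), and it was -0.59 without OVA_Rg3 5. These 3 carriers were the only ones without overlap, all lower, beside 7.53% of all genes lower and 3.79% higher without overlap, or 11.3% in all. For each of the 3 the mean in OVA_Rg3 lung lay between those of OVA and control lung, at 29.7, 5.86 and 6.71. The same 3 were the carriers called lower in OVA against control lung, so this order is not independent of that call. None of the 3 passed against OVA lung, where Slc25a17 changed by 0.26 (limma adjusted p = 0.761) and Slc25a10 by 0.46 (limma adjusted p = 0.780).

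Slc25a18, Slc25a33 and Slc25a38 came next, with changes of -0.83 (adjusted p = 0.0765), -1.32 (adjusted p = 0.0867) and -0.73 (adjusted p = 0.135). Slc25a18 and Slc25a33 were listed at 0 in OVA_Rg3 1, where 8 carriers were at 0 and 14 were worth fewer than 3 reads. Without that library Slc25a33 was at -0.89. Slc25a38 was at -0.46 without control 2, whose 15.9 stood above the other control libraries. Slc25a37 was at -0.61 (adjusted p = 0.298), Slc25a1 at 0.38 (adjusted p = 0.319), Slc25a5 at 0.30 (adjusted p = 0.479), Slc25a4 at 0.19 (adjusted p = 0.625), Slc25a3 at 0.16 (adjusted p = 0.645), Slc25a12 at -0.12 (adjusted p = 0.614) and Slc25a20 at 0.045 (adjusted p = 0.896).

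The machinery that imports the carriers was read beside them. Slc25 proteins enter the inner membrane through the receptors and pore of the outer membrane, small chaperones of the space between the membranes and the TIM22 complex. Of 15 tested genes of this route none was called in OVA against control lung, at a median change of 0.16, and none at an unadjusted p under 0.05. Of all genes, 14.8% were called in that comparison and 29.1% had an unadjusted p under 0.05. None was called in OVA_Rg3 lung against OVA or control lung either, beside 0% and 7.78% of all genes. In each of these comparisons 1 gene of the route had an unadjusted p under 0.05, beside 8.73% and 24.5% of all genes.

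Other mitochondrial transporters outside the name rule were read as well. Of 22 tested in OVA against control lung, 6 were called, 1 higher and 5 lower, or 27.3% beside 14.8% of all genes, a difference that was not tested. Ucp2, which belongs to the same protein family under another name, rose from 35.7 to 87.1 (change 1.19, SE 0.25, limma adjusted p = 0.00678). The log2 change of Ucp2, OVA against control, was 0.24 on the deposited values (adjusted p = 0.602). Mcu, the pore of the calcium uniporter, fell by 0.74 (adjusted p = 0.0159), and Sfxn2, a sideroflexin, fell by 1.21 (adjusted p = 0.0336). None was called in OVA_Rg3 against OVA lung, and Sfxn2 alone in OVA_Rg3 against control lung, where it fell by 1.48 (adjusted p = 0.0251). That call was 4.55% of the 22 genes, beside 7.78% of all genes. The Sfxn2 calls were lost when single libraries were left out, with adjusted p up to 0.0865 and 0.0724.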

How the data were processed

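Values were taken from 1 deposited table of gene levels, which the authors made from RNA enriched with oligo(dT) beads and sequenced as TruSeq libraries, per the labels' protocols. The deposited values were taken as FPKM from their steps and totals, and TPM over a larger set of genes cannot be told apart. The submitters' processing notes name Trimmomatic, featureCounts, GRCm39 and mm39, while the deposited coordinates of 13555 of 14766 genes equal those of GRCm38 in GENCODE M21, so coordinates are given on GRCm38. No counts were used here, so the count model first planned was replaced by limma 3.58.1 in R 4.3.3 on log2(scaled FPKM + 1), fitted over all 15 libraries and the 12137 genes whose deposited level reached 1 in 5 or more libraries. Median-ratio factors ran from 0.522 to 1.54, a ratio of 2.94. The limma procedure was tested on simulated data. Other calculations used Python 3.11.15, numpy 2.4.6, pandas 2.3.3, scipy 1.17.1 and matplotlib 3.10.9.

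The counts and sums cover all members, and 1 member is not reported here by itself or drawn in the plots of single genes. Members, gene lists and tests were chosen with earlier results of these data known, among them the fall of Slc25a36. Named carriers were those called, otherwise the 5 of smallest p as well, and in each comparison Slc25a1, Slc25a3, Slc25a4, Slc25a5, Slc25a12, Slc25a20, Slc25a36 and Slc25a37. Of the other transporters up to 3 called genes were named. Carriers with libraries that stood apart, haem-related carriers, close relatives and neighbours were added after their values were seen. Alternatives were the deposited values, quantile normalization, scaling over genes of higher level, other filters, a pseudocount of 0.1, array weights, only the 2 groups compared, a replicate block, a stricter threshold, leaving out each library, leaving out 3 libraries together and leaving out mitochondrially encoded genes. No 2 libraries were identical, and replicates correlated at r = 0.739 to 0.965 across genes. The limma p-values set a difference between groups against the spread of these libraries within groups. Depth rests on steps seen in 1776 genes with a single transcript and is approximate.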

Additional observations from a re-analysis of the deposited data

Results flagged for a closer look

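A library stood apart from the other 4 of its group (Dixon's 95% criterion on log2 values) in 18 of 114 combinations of carrier and group, where chance gives about 1 in 20. Control 2 accounted for 8, OVA_Rg3 1 for 6, OVA_Rg3 5 for 2, and OVA 1 and OVA_Rg3 2 for 1 each. Control 2 and OVA_Rg3 1 are the shallowest libraries and, with OVA 4, those with the highest sums of liver markers. Their part in these values was not tested.

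In control 2, scaled FPKM was high for Slc25a39 (22.8), Slc25a38 (15.9), Slc25a44 (6.3) and Slc25a30 (3.32). In the same library it was low for Slc25a37 (4.79), Slc25a14 (0.962), Slc25a27 (0.336) and Slc25a22 (0.151). In OVA_Rg3 1 it was high for Slc25a44 (9.84), Slc25a47 (8.3), Slc25a42 (4.84), Slc25a22 (4.09) and Slc25a14 (3.59), and low for Slc25a38 (1.63).

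OVA 1, OVA_Rg3 2 and OVA_Rg3 5 stood apart in carriers named above. Slc25a36 was high in OVA 1 at 7.32 and low in OVA_Rg3 5 at 0.36. Slc25a15 was high in OVA_Rg3 5 at 1.42, and Slc25a32 was low in OVA_Rg3 2 at 0.337.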

How the results depend on the processing

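In OVA against control lung the calls of Slc25a36 and Slc25a17 held under all 27 alternatives, that of Slc25a10 under 26 of 27 (not at adjusted p under 0.01), and those of Slc25a30 and Slc25a3 under 24 of 26 and 17 of 27. Of 1045 values for 39 gene results, 952 kept their direction and their side of the threshold, 30 lost the call, 24 gained it and 39 turned sign. The cause was not tested.

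The count of called carriers in OVA against control lung, 5 above, was 23 on deposited values, all lower, where 51.8% of all genes were called. It was 10 with array weights (3 higher, 7 lower) and 2 at adjusted p under 0.01, where 29.1% and 4.82% of all genes were called. When each library was left out it was 4 to 6, beside 8.61% to 23.5% of all genes. In OVA_Rg3 against control lung the count, 0 above, was 8 on deposited values, 1 after quantile normalization, 2 with scaling over genes with a mean of at least 10, 1 with a filter of at least 5, 6 with array weights (2 higher, 4 lower), 1 with only the 2 groups compared, 2 with the replicate block (Slc25a17 and Slc25a33), and 1 (Slc25a39, higher) without control 2, OVA 4 and OVA_Rg3 1. It ran from 0 to 2 when each library was left out, with 2 without OVA 3, OVA_Rg3 3 or OVA_Rg3 4. Across those runs 1.44% to 9.62% of all genes were called. Of all genes, 16.6% were called on deposited values, 25.5% with array weights and 6.43% to 10.4% under the other settings just named that kept all libraries or left out those 3. In OVA_Rg3 against OVA lung the count of called carriers was 0 throughout.

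Sign turned on deposited values in OVA against control lung for Slc25a30 (-0.033), Slc25a3 (-0.30), Slc25a1 (-0.76), Slc25a4 (-0.81) and Slc25a5 (-0.70). In OVA_Rg3 against OVA lung it turned for Slc25a12 (0.29) and Slc25a37 (0.10), and in OVA_Rg3 against control lung for Slc25a1 (-0.073), Slc25a3 (-0.31), Slc25a4 (-0.29), Slc25a5 (-0.17) and Slc25a20 (-0.36). After quantile normalization, OVA against control changes were -0.031 for Slc25a4, 0.021 for Slc25a12 and 0.056 for Slc25a20. Slc25a20 in that comparison was at 0.047 with array weights, 0.021 with only the 2 groups compared and 0.067 without the 3 libraries. In OVA_Rg3 against OVA lung, Slc25a4 was at -0.11 with array weights and -0.12 without the 3 libraries, Slc25a20 at -0.0085 with array weights, and Slc25a12 at 0.047 with scaling over genes of higher level and 0.0032 without the 3 libraries.

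When each library was left out, Slc25a20 ran from -0.13 to 0.068 in OVA against control, from -0.013 to 0.12 in OVA_Rg3 against OVA and from -0.076 to 0.12 in OVA_Rg3 against control lung. In OVA_Rg3 against OVA lung, Slc25a4 ran from -0.17 to 0.15, Slc25a5 from -0.093 to 0.26 and Slc25a12 from -0.076 to 0.0021. The difference in mitochondrially encoded share ran from 36.7 to 45.1 points for OVA against control, from -13.3 to -4.86 for OVA_Rg3 against OVA and from 28.3 to 35.5 for OVA_Rg3 against control lung.

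Replicate numbers did not pair the libraries: deviations of same-numbered libraries correlated at -0.389 to 0.338, above 0.1 in 5 of 15 pairs, and 3 of 15 libraries correlated best with their own number. With the replicate block 4 carriers were called in OVA against control lung, where Slc25a3 had adjusted p = 0.0643.

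Depth limits the low carriers most: in OVA_Rg3 1, 14 of 41 carriers were worth fewer than 3 reads and 8 were listed at 0.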
